A study of Homo sapiens with 8 samples.

Results

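The miR-28, miR-151a and miR-708 family was measured as 5 mature miRNAs, hsa-miR-28-5p, hsa-miR-28-3p, hsa-miR-151a-5p, hsa-miR-151a-3p and hsa-miR-708-5p. They were taken by name from the 2006 human miRNAs that the array measures. The arrays profiled BT474 and SKBR3, a pair of established HER2+ breast cancer cell lines. BT474 belongs to the luminal B subtype and carries the estrogen receptor, the progesterone receptor and HER2, while SKBR3 lacks both hormone receptors and carries HER2. Cells of each line were given trastuzumab, a monoclonal antibody against HER2, at 6 μg/mL, or its solvent PBS (phosphate-buffered saline), and RNA was taken after 144 h. GEO's labels give 2 replicates in each of the 4 groups, which makes 8 arrays. The array labelled SKBR3 PBS replicate 1, however, was identical to BT474 PBS replicate 1 in all 60180 miRNA spots. It was counted once, under BT474, because it lay in slide column 2 among the BT474 arrays. That left 7 distinct arrays, 4 of BT474 and 3 of SKBR3, with a single SKBR3 PBS array. All PBS arrays lay in row 2 of the slide and all trastuzumab arrays in row 1, so treatment and slide row cannot be told apart. BT474 filled columns 1 and 2 and SKBR3 columns 3 and 4, so line and slide column cannot be told apart either.

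A miRNA hairpin is cut into a 5p and a 3p arm, and the arm loaded into an Argonaute protein directs it to mRNAs that pair with the seed, the bases near its 5′ end. The hairpins of miR-28, miR-151a and miR-708 are counted as relatives because they descend from the same kind of ancient LINE retrotransposon. Each lies within a protein-coding gene: MIR28 in LPP, which encodes a protein of cell adhesion sites, MIR151A in PTK2, which encodes focal adhesion kinase, and MIR708 in TENM4, which encodes a transmembrane teneurin.

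The RefSeq table for GRCh38.p14 held the mature sequence of 2 of the 5 members, hsa-miR-28-3p and hsa-miR-708-5p. They are shown with hsa-miR-708-3p, the other arm of the miR-708 hairpin, because the 3p arms let the relation of the hairpins be read from their bases. Each is written 5′ to 3′, and capitals mark the seed, bases 2 to 8.
hsa-miR-28-3p: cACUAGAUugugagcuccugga
hsa-miR-708-5p: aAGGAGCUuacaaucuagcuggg
hsa-miR-708-3p: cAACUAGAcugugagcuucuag
These RNAs lie at chr3:188688834-188688855 on the + strand for hsa-miR-28-3p, at chr11:79402077-79402099 on the - strand for hsa-miR-708-5p and at chr11:79402032-79402053 on the - strand for hsa-miR-708-3p. The RefSeq gene table places the hairpins inside the spans of LPP and TENM4 without giving exons, so exon or intron cannot be stated. The seeds of hsa-miR-28-3p and hsa-miR-708-3p differed as whole seeds but shared a run of 6 bases, which starts at base 2 of the first RNA and at base 3 of the second. Farther along, both held the 8 bases UGUGAGCU, from base 9 and base 10. None of the 3 RNAs shown was detected on any of the 7 arrays.

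The scanner software gave each miRNA a summed signal, built from background-subtracted spots of its probes, with an error and a call of detected or not. It wrote 0.1 where it made no detection. Not every probe of a detected miRNA entered this signal on each array, as given with the probes below. Each member was read by 30 spots, and no spot of a member was saturated. Detection was rare across the array: 1699 of the 2006 miRNAs (84.7%) lacked detection throughout, and 173 had it on all 7 arrays. The BT474 arrays detected 247 and 254 miRNAs after PBS and 248 and 256 after trastuzumab. The SKBR3 PBS array detected 203, and the SKBR3 trastuzumab arrays 218 and 201. hsa-miR-28-5p and hsa-miR-151a-5p were detected on all 7 arrays, hsa-miR-151a-3p on 6, and hsa-miR-28-3p and hsa-miR-708-5p on none. The precision is limited by the number of arrays.

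hsa-miR-151a-5p had summed signals of 1636 and 2038 on the BT474 PBS arrays and 1906 and 2409 on the BT474 trastuzumab arrays. On SKBR3 it had 149.6 after PBS and 179 and 145 after trastuzumab. All 4 BT474 signals thus lay far above all 3 SKBR3 signals, with no overlap between the lines. Within SKBR3, the PBS signal lay between those of the trastuzumab arrays. The software's error was 8.46% to 8.60% of the signal on BT474 arrays and 13.3% to 14.8% on SKBR3 arrays.

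hsa-miR-151a-3p, cut from the other arm of the same hairpin, followed the same order of lines. Its signals were 537 and 648 on the BT474 PBS arrays and 593 and 744 on the BT474 trastuzumab arrays. On SKBR3 it had 47.6 after PBS and 59.3 on trastuzumab replicate 2, and it was not detected on trastuzumab replicate 1, where the lowest signal of any detected miRNA was 26.8. The lines did not overlap here either, and the error rose from 8.45% to 8.75% of the signal in BT474 to 28.7% to 29.5% on the SKBR3 arrays that detected it.

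hsa-miR-28-5p had signals of 184 and 214 on the BT474 PBS arrays and 214 and 263 on the BT474 trastuzumab arrays. The SKBR3 signals were 65.2 after PBS and 83.1 and 63.5 after trastuzumab. The raw signals of the lines were separate, with a smaller gap than for the miR-151a arms, and the errors were 12.3% to 14.0% in BT474 and 22.1% to 27.1% in SKBR3. Its hairpin partner hsa-miR-28-3p had 0 spots well above the local background on any array. hsa-miR-708-5p had 1 such spot, on the SKBR3 PBS array. Without detection of these members on any array, no level and no fold can be given. The lowest detected signals of the arrays ran from 19.3 to 28.3, which are not detection limits that hold for every miRNA.

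Separate raw signals, which are not scaled between arrays, were common: of the 173 miRNAs detected on all arrays, 92 (53.2%) had every SKBR3 signal below every BT474 signal, hsa-miR-28-5p and hsa-miR-151a-5p among them. After quantile normalization, 43 (24.9%) did, with hsa-miR-151a-5p and without hsa-miR-28-5p.

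**Figure D1:**
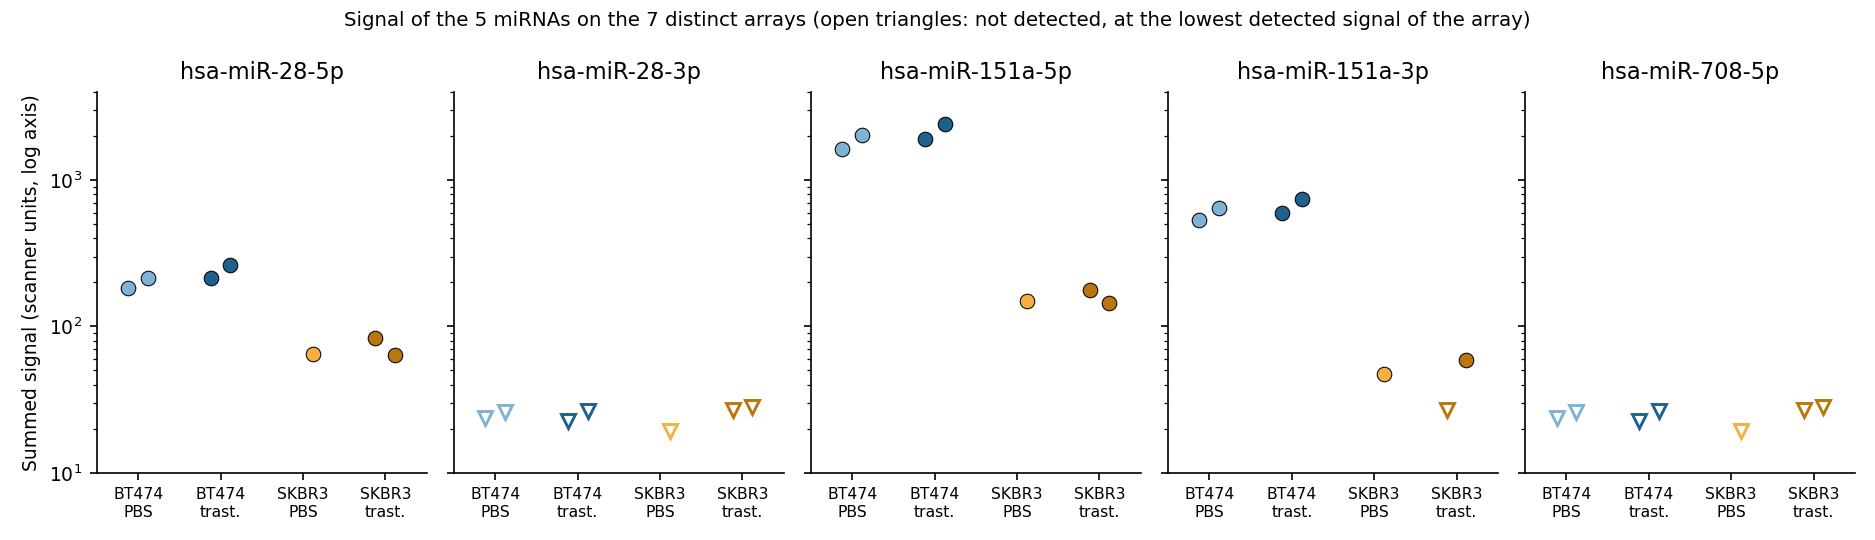
Summed signal (scanner units, log axis) of the 5 miRNAs on the 7 distinct arrays, 1 point per array, by line and treatment; open triangles stand for arrays without detection and sit at the lowest detected signal of that array. The 4 BT474 arrays lie above the 3 SKBR3 arrays for hsa-miR-28-5p and both miR-151a arms, as for 53.2% of the miRNAs detected on all arrays, while hsa-miR-28-3p and hsa-miR-708-5p have triangles only.

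Each detected member was read by a pair of probes, named here as on the array. The intensities of both, which are not scaled between arrays, were higher in BT474. On BT474 arrays the summed signals of these members followed the sum of both probe means. On SKBR3 arrays with detection they followed a single probe mean, that of A_25_P00012376, A_25_P00010578 or A_25_P00013850. Differences between the lines in summed signal thus compare unlike sets of probes, and the share of this in their size was not tested. For hsa-miR-151a-5p, probe A_25_P00012376 was well above background in 100% of its spots in both lines, and its mean spot intensity in BT474 was 10.5 times that in SKBR3. Probe A_25_P00012375 had array means of 1298 to 1911 in BT474 and 103 to 119.7 in SKBR3, where 0% of its spots were well above background, so no ratio is given for it. For hsa-miR-151a-3p, probe A_25_P00010578 had array means of 1843 to 2525 in BT474 and 225 to 279 in SKBR3, and probe A_25_P00014020 had 689.6 to 984 and 65.9 to 81.1. Only 11.9% and 0% of their SKBR3 spots, respectively, were well above background, against 100% in BT474 for both probes, so these give no ratio either. For hsa-miR-28-5p, probe A_25_P00013850 was well above background in 100% of its BT474 spots and 36.4% of its SKBR3 spots, and had array means of 626 to 903 and 299.5 to 391.8. Probe A_25_P00013849 had 243 to 337 and 137 to 155, with 18.6% and 0% of its spots well above background. Levels of different probes depend on their binding as well as on the RNA, so no member was ranked above another by its level. The arm ratios of miR-151a given below are compared between arrays only.

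**Figure D2:**
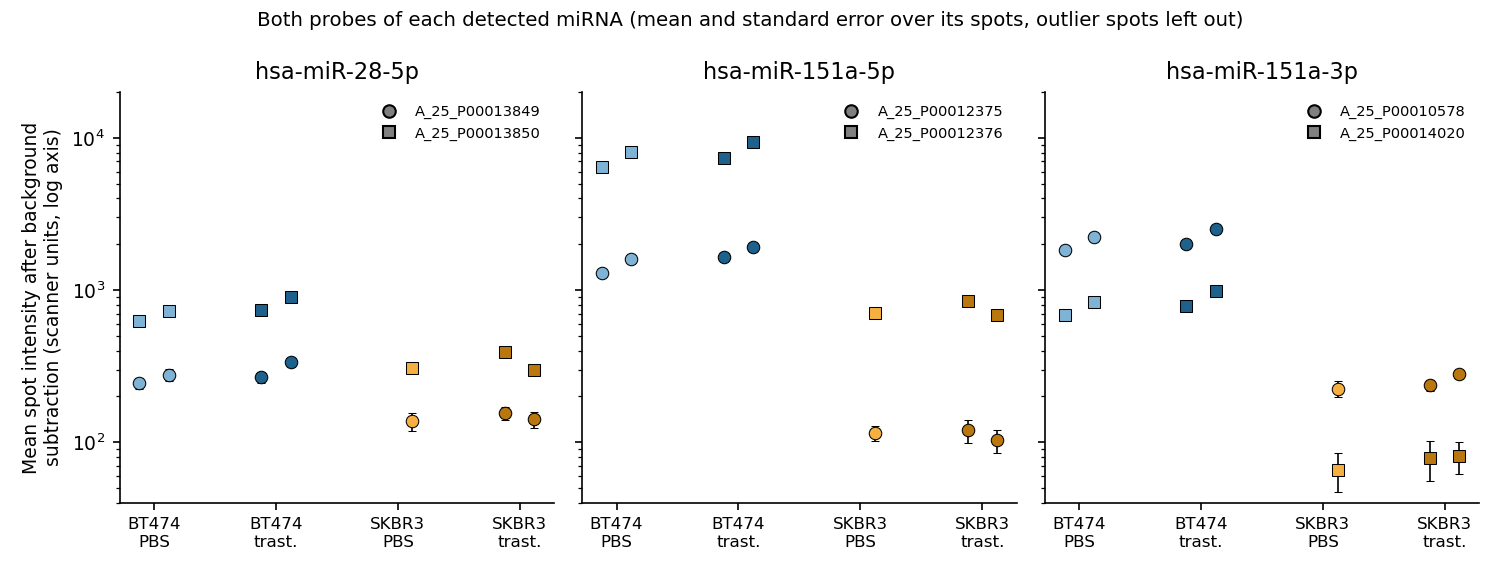
Mean intensity after background subtraction (scanner units, log axis) of each probe of the 3 detected miRNAs on the 7 arrays; circles and squares are the probes of a miRNA and bars the standard error over the spots of an array. Every probe has its 4 BT474 values above its 3 SKBR3 values; in SKBR3, probes A_25_P00012375, A_25_P00013849 and A_25_P00014020 had 0% of their spots well above background.

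The first comparison asked how the lines differed, with the treatments weighted equally. Signals were quantile normalized over the arrays, set to at least 10 and tested on the log2 scale with limma over the 305 miRNAs above that floor on any array. Of the 5 members, 3 were tested. 2 of these, hsa-miR-151a-5p and hsa-miR-28-5p, were lower in SKBR3 at an adjusted p under 0.05, and 3 had an unadjusted p under 0.05, as had 223 of the 305 miRNAs (73.1%). Such calls were common: 209 of the 305 miRNAs (68.5%) were called, 107 higher and 102 lower in SKBR3, the lower ones making up 33.4% of those tested. Among the 173 miRNAs detected on all arrays, 48 (27.7%) were called lower. The median log2 difference over the 3 tested members was -2.53, the value of hsa-miR-151a-5p itself, and 2 of the 3 are arms of the same hairpin. The median was 0 over all tested miRNAs and 0.42 over the 173 detected on all arrays, so no shift of the family is read from it. Because the samples were bulk RNA, fewer cells with a miRNA and less of it per cell cannot be told apart.

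hsa-miR-151a-5p had normalized log2 signals of 10.59 and 10.64 on the BT474 PBS arrays, 10.55 and 10.59 on the BT474 trastuzumab arrays, 8.32 on the SKBR3 PBS array and 7.86 and 7.77 on the SKBR3 trastuzumab arrays. The means were 10.59 ± 0.04 (SD, n = 4) in BT474 and 7.98 ± 0.29 (SD, n = 3) in SKBR3. It fell by 2.53 on the log2 scale from BT474 to SKBR3 (standard error 0.04, 95% confidence interval -2.65 to -2.41, limma adjusted p = 1.60e-05). That is 5.77-fold lower, and all 3 SKBR3 arrays lay below all 4 BT474 arrays. This fold sets BT474 signals of both probes against SKBR3 signals of probe A_25_P00012376 alone, so it is not an exact ratio of levels. Among the 173 miRNAs detected on all arrays hsa-miR-151a-5p had the 5th difference from the lowest. Within the rows of the slide, the difference was -2.30 for the PBS arrays alone (limma adjusted p = 0.0102) and -2.76 for the trastuzumab arrays alone (limma adjusted p = 0.000455). The PBS row holds a single SKBR3 array, so for each member the spread in that fit comes from the BT474 arrays alone. With the copied array kept under its SKBR3 label, the difference was -1.95 and did not pass (limma adjusted p = 0.0688).

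The size of this difference moved with the scaling between arrays, and so did the median of the 173 miRNAs detected on all arrays. That median was 0.42 (log2, SKBR3 minus BT474) after quantile normalization, 0.20 after scaling to the 75th percentile and -0.71 with no scaling. hsa-miR-151a-5p differed by -2.53, -2.76 and -3.67 under the same 3 choices. Relative to the median it lay at -2.94, -2.96 and -2.96, or 7.70-fold, 7.79-fold and 7.79-fold lower, the last pair being equal by construction, since those scalings differ by 1 factor per array. These folds too set both probes in BT474 against a single probe in SKBR3.

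hsa-miR-151a-3p had normalized log2 signals of 8.93 and 9.02 after PBS and 8.91 and 8.93 after trastuzumab in BT474. In SKBR3 it had 6.89 after PBS, 6.66 on trastuzumab replicate 2 and 3.32, the floor, on trastuzumab replicate 1, which did not detect it. The SKBR3 arrays were all lower, but the undetected one made their spread wide (SD 2.00, n = 3, against 0.05, n = 4, in BT474). Only 11.9% and 0% of the SKBR3 spots of the hsa-miR-151a-3p probes were well above background, so the sizes below are not read as folds. The difference was -3.01 (standard error 0.96, 95% confidence interval -5.74 to -0.29), which did not pass (limma adjusted p = 0.0538). SKBR3 trastuzumab replicate 1 was also set to the lowest detected signal of that array, a choice made after seeing the data. This signal is not a detection limit for hsa-miR-151a-3p. With it the difference was -2.47 (limma adjusted p = 0.00497). Without that array it was -2.17 (limma adjusted p = 0.000433). Without SKBR3 trastuzumab replicate 2 it was -3.88, with the undetected array at the floor as the only SKBR3 trastuzumab array. The PBS arrays alone gave -2.09 (limma adjusted p = 0.0181) and the trastuzumab arrays alone, with the undetected array, -3.93 (limma adjusted p = 0.102).

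hsa-miR-28-5p had normalized log2 signals of 7.43 and 7.27 after PBS and 7.38 and 7.43 after trastuzumab in BT474, and of 7.36 after PBS and 6.92 and 6.80 after trastuzumab in SKBR3. The lines overlapped on this scale: the SKBR3 PBS array lay among the BT474 arrays, and the SKBR3 trastuzumab arrays lay below them. The means were 7.38 ± 0.08 (SD, n = 4) in BT474 and 7.03 ± 0.30 (SD, n = 3) in SKBR3. The difference was -0.27 (standard error 0.07, 95% confidence interval -0.45 to -0.08, limma adjusted p = 0.0270), and it was the 48th from the lowest of the 173. It rested on the trastuzumab arrays, at -0.55 when taken alone (limma adjusted p = 0.0118), whereas the PBS arrays alone gave 0.01 (limma adjusted p = 0.928). With the replicate number as a block it was -0.25 and did not pass (limma adjusted p = 0.0562). It did not pass either without BT474 trastuzumab replicate 1 (-0.27, limma adjusted p = 0.0770), BT474 trastuzumab replicate 2 (-0.26, limma adjusted p = 0.0760) or SKBR3 trastuzumab replicate 2 (-0.23, limma adjusted p = 0.0529). Means of the spot intensities in place of the summed signals gave 0.01 (limma adjusted p = 0.951). Those means keep the spots of both probes on every array, whereas the SKBR3 summed signals hold probe A_25_P00013850 alone. The line differences from summed signals thus compare unlike probes and are not read as a change of level. From summed signals the difference was -0.75 after 75th percentile scaling (limma adjusted p = 0.000555) and -1.66 with no scaling (limma adjusted p = 0.00157). Relative to the median of the detected miRNAs it lay at -0.68, -0.95 and -0.95 under the 3 scalings.

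**Figure D3:**
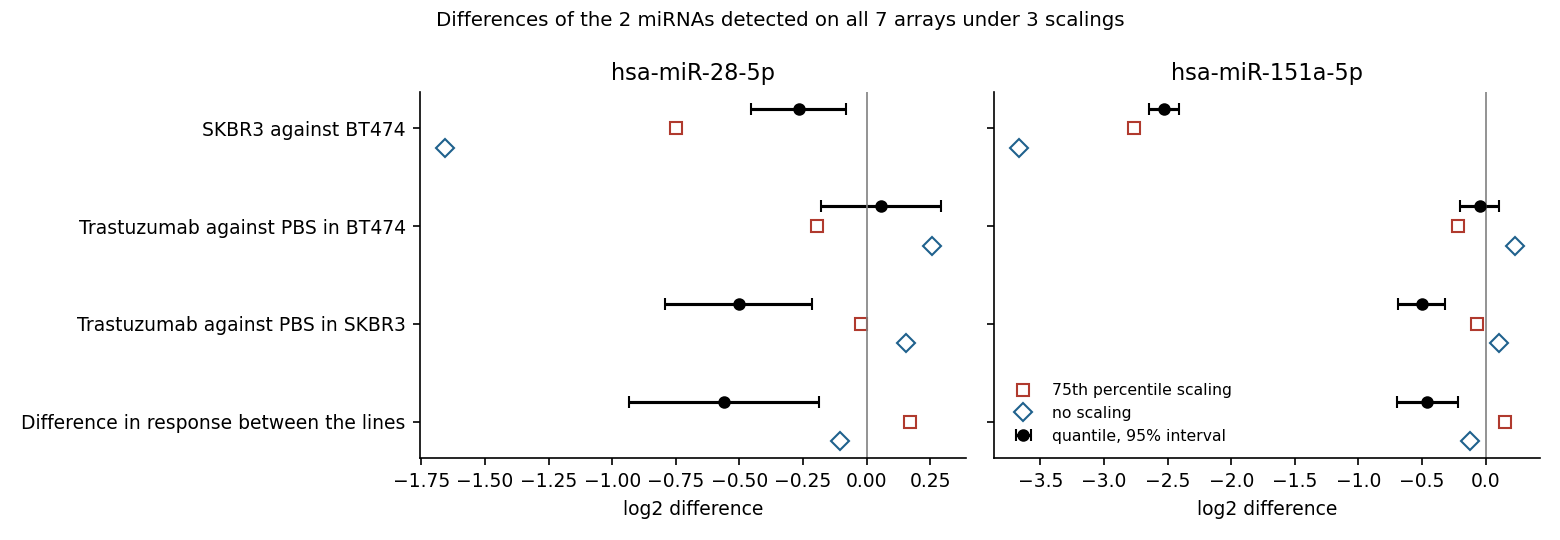
Log2 differences of hsa-miR-28-5p and hsa-miR-151a-5p in the 4 comparisons; black points with bars are the estimates after quantile normalization with 95% confidence intervals, squares those after 75th percentile scaling and diamonds those with no scaling. The difference between the lines lies below 0 under each scaling (-2.53, -2.76 and -3.67 for hsa-miR-151a-5p), while the treatment differences in both lines and the difference in response lie on either side of 0 or close to it, depending on the scaling. For both miRNAs the BT474 signals hold both probes and the SKBR3 signals a single probe.

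The second comparison set trastuzumab against PBS in BT474, to find miRNAs that respond to the antibody. None of the 3 tested members was called by limma, and 0 had an unadjusted p under 0.05 (112 of 305 miRNAs had, 36.7%), while 74 of 305 miRNAs (24.3%) were called in this line, 42 higher and 32 lower. With the replicate number as a block, 49 were called and again no member. Without SKBR3 trastuzumab replicate 1 or replicate 2 in the fit, 49 and 44 were called. None of the members passed the study's thresholds (unadjusted p under 0.05 and a fold above 2), which 39 of the 305 (12.8%) passed. hsa-miR-151a-5p differed by -0.05 (95% confidence interval -0.20 to 0.11, limma adjusted p = 0.626) and hsa-miR-28-5p by 0.06 (95% confidence interval -0.18 to 0.29, limma adjusted p = 0.706). The signs of both depended on the scaling: after 75th percentile scaling they were -0.22 and -0.19, and with no scaling 0.23 and 0.26, where the median of the 173 detected miRNAs was -0.23 and 0.22 in place of 0. As folds, the quantile normalized intervals run from 0.872 to 1.08 and from 0.883 to 1.23, so larger changes lie outside them. hsa-miR-151a-3p differed by -0.05 with a standard error of 1.21, which carries the spread of the undetected SKBR3 array into this line. Without that array the difference was -0.06 (limma adjusted p = 0.513).

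In SKBR3, trastuzumab was set against the single PBS array, which was assumed to vary like the other groups. 1 of the 3 tested members, hsa-miR-151a-5p, was called, 2 had an unadjusted p under 0.05, and none passed the study's thresholds. Over all miRNAs, 36 of 305 (11.8%) were called, 69 (22.6%) had an unadjusted p under 0.05 and 28 (9.18%) passed the study's thresholds. hsa-miR-151a-5p fell by 0.50 on the log2 scale (standard error 0.07, 95% confidence interval -0.69 to -0.32, limma adjusted p = 0.0256), with both trastuzumab arrays below the PBS array after normalization. hsa-miR-28-5p differed by -0.50 (standard error 0.10, 95% confidence interval -0.79 to -0.21), also with both arrays below, and did not pass (limma adjusted p = 0.0651). With no scaling it was 0.16. hsa-miR-151a-3p differed by -1.89 (standard error 1.49, limma adjusted p = 0.631). Without SKBR3 trastuzumab replicate 1, which did not detect it, its difference was -0.23 (limma adjusted p = 0.206), while without SKBR3 trastuzumab replicate 2 the undetected array at the floor was set against the PBS array, so the value of -3.66 was fixed by the floor. The mean spot intensity of hsa-miR-151a-3p on the undetected array was 158, against 142 on the PBS array and 177 on trastuzumab replicate 2.

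The call for hsa-miR-151a-5p in SKBR3 depended on the scaling. The median of the 173 detected miRNAs differed between SKBR3 treatments by -0.10 after quantile normalization, 0.18 after 75th percentile scaling and 0.36 with no scaling. hsa-miR-151a-5p differed by -0.50, -0.07 and 0.11 under these choices, so its sign turned with no scaling, and relative to the median it lay at -0.40, -0.25 and -0.25. With the replicate number as a block it was -0.50 and did not pass (limma adjusted p = 0.111), and the count over all miRNAs was 18 in place of 36. It also did not pass without BT474 PBS replicate 1 (limma adjusted p = 0.0650), BT474 PBS replicate 2 (limma adjusted p = 0.0610) or BT474 trastuzumab replicate 1 (limma adjusted p = 0.0569), at -0.50, -0.49 and -0.50. The count over all miRNAs was 16 without BT474 PBS replicate 1, 21 without BT474 PBS replicate 2 and 20 without SKBR3 trastuzumab replicate 1.

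The difference between these responses was tested as an interaction. 1 of the 3 tested members was called, and 2 had an unadjusted p under 0.05, against 49 of 305 miRNAs called (16.1%), 19 with a higher and 30 with a lower response in SKBR3, and 92 (30.2%) with an unadjusted p under 0.05. hsa-miR-151a-5p had an interaction of -0.46 (standard error 0.09, 95% confidence interval -0.70 to -0.22, limma adjusted p = 0.0436). hsa-miR-28-5p had -0.56 (limma adjusted p = 0.0792), or 0.17 after 75th percentile scaling, and hsa-miR-151a-3p -1.84 (limma adjusted p = 0.601), and neither passed. For hsa-miR-151a-5p the interaction was 0.15 after 75th percentile scaling and -0.12 with no scaling, where the median of the detected miRNAs was 0.41 and 0.13 in place of -0.09. With the replicate number as a block it was -0.46 and did not pass (limma adjusted p = 0.135), with 22 miRNAs called. The count was 74 without BT474 trastuzumab replicate 2 and 29 without SKBR3 trastuzumab replicate 1. It did not pass without BT474 PBS replicate 1 (-0.43, limma adjusted p = 0.0920), BT474 PBS replicate 2 (-0.46, limma adjusted p = 0.0727) or BT474 trastuzumab replicate 1 (-0.47, limma adjusted p = 0.0745). The same held without SKBR3 trastuzumab replicate 1 (-0.52, limma adjusted p = 0.0508) and SKBR3 trastuzumab replicate 2 (-0.43, limma adjusted p = 0.0529). Without SKBR3 trastuzumab replicate 2 the interaction of hsa-miR-151a-3p was -3.62, a value fixed by the floor of the undetected array.

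The arms of a hairpin are made from the same transcript. The ratio of their signals within an array, like that of any pair of miRNAs, does not change with a factor that scales the whole array. Of 534 hairpins with both arms on the array, 7 had both detected on all 7 arrays, and 6 of these 7 (85.7%) differed in arm ratio between the lines. Neither miR-28 nor miR-151a was among the 7. For miR-28 no array detected both arms. For miR-151a 6 arrays did, and its log2 ratio of 5p to 3p was 1.61 and 1.65 on the BT474 PBS arrays, 1.69 and 1.69 on the BT474 trastuzumab arrays, 1.65 on the SKBR3 PBS array and 1.30 on SKBR3 trastuzumab replicate 2. The BT474 ratios use both probes of each arm. The SKBR3 ratios use probes A_25_P00012376 and A_25_P00010578 alone, so a difference of this ratio between the lines compares unlike probes. On the SKBR3 arrays hsa-miR-151a-3p had 4 of 29 spots well above background after PBS and 0 of 28 and 1 of 29 after trastuzumab, so the SKBR3 ratios rest on a 3p signal near background.

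Over the 8 hairpins with both arms detected on those 6 arrays, limma gave miR-151a a difference of -0.19 between SKBR3 and BT474 (standard error 0.07, 95% confidence interval -0.36 to -0.01, adjusted p = 0.0429). With 7 of the 8 hairpins called (87.5%), such a call was the background, and miR-151a ranked 7th of the 8 by the size of its difference. Without SKBR3 trastuzumab replicate 2 the difference was 0.02, with the PBS array as the only SKBR3 array. Both values set BT474 ratios from both probes of each arm against SKBR3 ratios from a single probe of each. Which array the difference rests on is therefore not read. The difference did not pass without BT474 PBS replicate 1 (-0.20), BT474 PBS replicate 2 (-0.18), BT474 trastuzumab replicate 1 (-0.19) or BT474 trastuzumab replicate 2 (-0.18), nor with the replicate number as a block (-0.20, limma adjusted p = 0.0556). Without the SKBR3 PBS array it was -0.39 (limma adjusted p = 0.0371), and from quantile normalized values -0.40 (limma adjusted p = 0.00670). The ends of the range over the 7 hairpins were hsa-miR-4701 at -0.43 and hsa-miR-30e at -0.39, and hsa-miR-197 at 1.10 and hsa-miR-21 at 2.21.

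Between trastuzumab and PBS the miR-151a arm ratio differed by 0.06 in BT474 (limma adjusted p = 0.556) and by -0.36 in SKBR3 (standard error 0.11, limma adjusted p = 0.0418), where 5 of the 8 hairpins (62.5%) were called. The SKBR3 value sets 1 array against 1 array, its error comes from the spread of the 4 BT474 arrays, and its 3p arm was near background, so no response to trastuzumab is read from it. The SKBR3 value did not pass when any of the 4 BT474 arrays was left out, at -0.36 with a limma adjusted p of 0.130 without either PBS array and 0.0774 without either trastuzumab array. It was -0.33 from quantile normalized values (limma adjusted p = 0.116), -0.33 with all labelled arrays (limma adjusted p = 0.0957) and -0.12 from spot means (limma adjusted p = 0.592), none of which passed. The interaction was -0.42 and did not pass (limma adjusted p = 0.100).

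**Figure D4:**
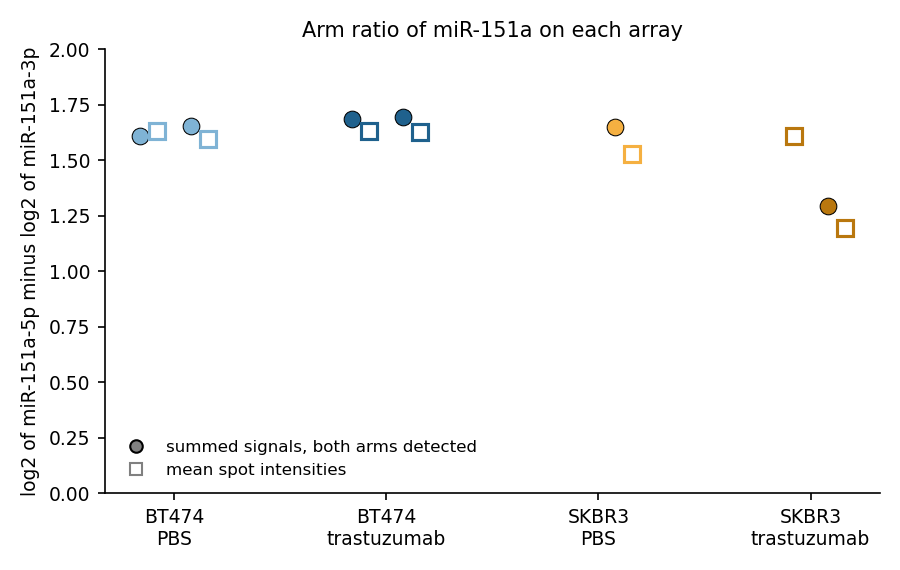
Log2 of hsa-miR-151a-5p minus log2 of hsa-miR-151a-3p on each array, from summed signals where both arms were detected (filled circles, 6 arrays) and from mean spot intensities (open squares, 7 arrays). SKBR3 trastuzumab replicate 2 is the lowest on both scales, at 1.30 and 1.19. The 3p arm was near background on all 3 SKBR3 arrays, so their order is not read. The filled circles use both probes of each arm in BT474 and a single probe of each arm in SKBR3.

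Relatives outside the 5 members were looked at from a list of 4. hsa-miR-708-3p and hsa-miR-325 were not detected on any array. hsa-miR-151b had signals of 444 and 526 after PBS and 611 and 767 after trastuzumab in BT474, 43.6 after PBS and 58.9 on trastuzumab replicate 1 in SKBR3, and was not detected on SKBR3 trastuzumab replicate 2. The BT474 arrays were again far above the SKBR3 arrays. Its difference was -3.23 (standard error 0.75, limma adjusted p = 0.0226), a size set in part by the floor given to the undetected array. With that array at its lowest detected signal, which is not a detection limit for this miRNA, BT474 was higher by 2.50. Only 6.98% and 0% of the SKBR3 spots of the 2 hsa-miR-151b probes were well above background, so neither size is read as a fold. hsa-miR-151b and hsa-miR-151a-5p are nearly the same in sequence, and whether their probes separate them was not tested. hsa-miR-95 was detected on all 4 BT474 arrays, at 49.2 and 85.2 after PBS and 59.2 and 69.7 after trastuzumab, and on no SKBR3 array. Its mean of 5.36 in BT474 (normalized log2) lay below the 5.93 that the lowest detected signals of the SKBR3 arrays average, so no fold is given. Of the 4 relatives, the 2 that were tested, hsa-miR-151b and hsa-miR-95, were not called for treatment in either line or for the interaction.

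The miRNAs whose hairpins lie within 5 Mb of a member's hairpin differed among themselves. Near MIR28, none of the miRNAs on the array was detected on any of the 7 arrays. Near MIR151A, hsa-miR-937-5p, hsa-miR-1234-3p and hsa-miR-1234-5p were detected on all 7 arrays and were higher in SKBR3, by 1.34 (limma adjusted p = 0.000185), 1.66 (limma adjusted p = 0.00281) and 0.85 (limma adjusted p = 0.00144) on the log2 scale. With no scaling they differed by 0.13, -0.05 and -0.36 and were not called, and relative to the median of the detected miRNAs they lay at 0.92, 1.25 and 0.43 after quantile normalization and 0.84, 0.66 and 0.35 with no scaling. hsa-miR-939-5p was detected on 3 BT474 arrays and no SKBR3 array and hsa-miR-4472 on the 4 trastuzumab arrays alone, so their line differences are fixed in part by the floor and are not given. After quantile normalization, the 3 neighbours of MIR151A detected on all 7 arrays thus lay above that median, while hsa-miR-151a-5p lay at -2.94. Near MIR708, hsa-miR-326 alone was detected, on 3 BT474 arrays and no SKBR3 array. Its line difference is likewise fixed in part by the floor and is not given.

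The miRNAs most like hsa-miR-151a-5p over the 7 arrays, by Pearson's r of normalized log2 signal among 171 miRNAs, were hsa-miR-301a-3p (r = 0.998), hsa-miR-196a-5p (r = 0.997) and hsa-miR-103a-3p (r = 0.997). They too were lower in SKBR3, by log2 differences of -5.43, -3.31 and -1.32. For hsa-miR-28-5p they were hsa-miR-149-5p (r = 0.910), hsa-miR-148a-3p (r = 0.906) and hsa-miR-99a-5p (r = 0.867), with line differences of -0.55, -1.06 and -0.48. hsa-miR-28-5p and hsa-miR-151a-5p had r = 0.794 with each other over the 7 arrays and -0.614 over the 4 BT474 arrays. These values are a description, since the arrays fall into the lines and are not spread evenly between them.

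Markers of cell types were read beside these results. Both epithelial miRNAs, hsa-miR-200c-3p and hsa-miR-141-3p, were detected on all 7 arrays, with a summed signal of 21502 and 25198 after PBS and 24103 and 26526 after trastuzumab in BT474, and 14138 after PBS and 17623 and 12719.6 after trastuzumab in SKBR3, hsa-miR-141-3p being the brightest. These sums are not normalized, and hsa-miR-141-3p had 14, 5 and 14 saturated spots on BT474 PBS replicate 2 and both BT474 trastuzumab arrays. After quantile normalization hsa-miR-200c-3p was higher in SKBR3 by 0.59 (limma adjusted p = 0.000695) and hsa-miR-141-3p differed by -0.03 (limma adjusted p = 0.720). The latter is not an exact value, because of the saturated BT474 spots. Outside the list, and chosen after their values were seen, the related epithelial miRNAs hsa-miR-200a-3p, hsa-miR-200b-3p and hsa-miR-429 were detected on all 4 BT474 arrays (means after PBS of 11.17, 12.04 and 10.73 on the normalized log2 scale) and on no SKBR3 array. From the ERBB2 locus, which encodes HER2, hsa-miR-4728-3p was detected on the BT474 PBS arrays alone (166 and 67.7) and hsa-miR-4728-5p on the SKBR3 arrays alone (44.7, 97.9 and 52.0). Of 5 blood cell miRNAs, hsa-miR-451a was detected on BT474 trastuzumab replicate 2 (57.3) and the other 4 nowhere. Of 6 stroma and muscle miRNAs, 5 were detected nowhere and hsa-miR-1 on the 4 BT474 arrays, at 127 and 173 after PBS and 286 and 382 after trastuzumab. Outside the list, and chosen after their values were seen, the muscle miRNAs hsa-miR-133b and hsa-miR-499a-5p were detected on 4 and 2 arrays, none of them SKBR3, with normalized log2 means in BT474 of 6.44 after PBS and 7.42 after trastuzumab for the first and of 6.78 after trastuzumab for the second. hsa-miR-126-3p, a miRNA of endothelium, was detected on 3 BT474 arrays (68.5, 51.6 and 88.5). hsa-miR-1, like hsa-miR-151a-5p, was higher on the BT474 arrays, and its part in these results was not tested. With no SKBR3 array detecting it, no fold is given.

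The deposited table of log2 values, normalized per line, kept the copied array under both labels. Its SKBR3 PBS replicate 1 column had a Spearman correlation of 1 across probes with the BT474 PBS replicate 1 column. For hsa-miR-151a-5p, probe A_25_P00012376 had deposited log2 values of 12.07 and 9.97 in the SKBR3 PBS columns and 9.68 and 9.60 in the trastuzumab columns. Probe A_25_P00012375 had 9.76 and 7.05 after PBS and 7.01 and 7.07 after trastuzumab. In both, the copied column stood alone above the other 3. As labelled, the fold of trastuzumab over PBS was 0.384 for probe A_25_P00012376, and without the copied column it was 0.794. SKBR3 folds are given only for probes with at least 36.4% of their SKBR3 spots well above background, and the other probes by their values. For hsa-miR-151a-3p, probe A_25_P00010578 had 10.22 and 8.90 after PBS and 8.01 and 8.16 after trastuzumab. Probe A_25_P00014020 had 9.03 and 6.23 after PBS and 7.24 and 6.46 after trastuzumab. The copied column was again the highest of the 4 on both. For hsa-miR-28-5p, the fold on probe A_25_P00013850 was 0.894 as labelled and 0.954 without the copy.

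On probe A_25_P00012376 alone, the deposited SKBR3 values gave hsa-miR-151a-5p a log2 difference of -1.38 as labelled and -0.33 without the copy. Probe A_25_P00012375, with 0% of its SKBR3 spots well above background, gives no difference. Averaged over the probes of a miRNA, the deposited values did not call hsa-miR-151a-5p in SKBR3 as labelled (limma adjusted p = 0.935). No member was called in either line from these values, and 0 had an unadjusted p under 0.05, with 0 of 2006 miRNAs called by limma after adjustment. In BT474, where the copy plays no part, hsa-miR-151a-5p differed by 0.02 (limma adjusted p = 0.980) and hsa-miR-28-5p by 0.12 (limma adjusted p = 0.914).

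**Figure D5:**
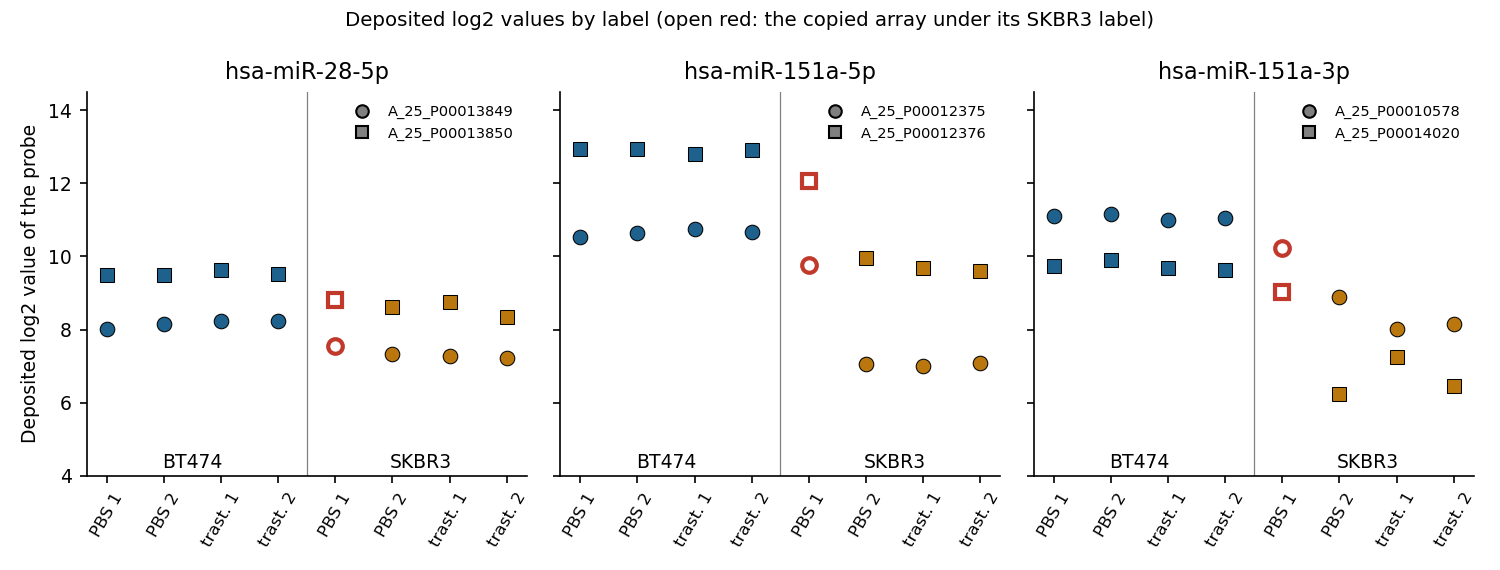
Deposited log2 value of each probe of the 3 detected miRNAs in the 8 labelled columns; circles and squares are the probes of a miRNA, and open red symbols the copied array under its SKBR3 PBS label. For both miR-151a arms the red symbols lie above the other 3 SKBR3 columns (12.07 against 9.97, 9.68 and 9.60 on probe A_25_P00012376), while for hsa-miR-28-5p they lie close to them.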

How the data were processed

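RNA of BT474 and SKBR3 cells was hybridized to Agilent human miRNA arrays, 1 array per sample. The authors deposited scanner files with an intensity for each spot and for each miRNA, background-subtracted and not normalized between arrays, and, for each probe, log2 values quantile normalized within a line. The members and the lists used here were chosen with earlier results of these data known. Files identical in all spots were counted once. The summed intensity of each miRNA was quantile normalized over 7 arrays, set to at least 10 and log2 transformed. miRNAs at the floor on every array were left out. Groups were compared with limma 3.58.1 in R 4.3.3, all 4 groups in 1 fit, with Benjamini-Hochberg adjustment over all miRNAs tested and calls at an adjusted p under 0.05. These p-values measure the spread between these arrays. Arm ratios were fitted the same way on log2 of 5p minus 3p. The plan asked for hairpins detected in both arms on all 7 arrays, which left out both hairpins of the family, so miR-151a was fitted on the 6 arrays that detected both of its arms, a choice made after seeing the data. Files were read in Python 3.11.15 (numpy 2.4.6, pandas 2.3.3) and plots drawn with matplotlib 3.10.9. In means of spots, spots that the software marked as outliers were left out (3.57% to 4.22% of miRNA spots per array).

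The miRNAs named were the 5 members, 4 relatives, the 3 most correlated miRNAs for each member detected on all arrays, both ends of the arm ratio range, detected neighbours within 5 Mb and the marker lists (epithelial, ERBB2 locus, blood cells, stroma and muscle, endothelium). Whether replicate numbers pair the samples was checked over 173 miRNAs: the replicate differences correlated at 0.297, 0.148 and 0.119 between groups, so results with the replicate number as a block are given where they change a call. Same-numbered arrays of a line also shared a slide column. Alternatives were 75th percentile scaling, no scaling, a floor of 1, detected miRNAs only, spot means, normexp correction (offset 50, median spot intensities), all 8 labelled arrays, each array left out, the replicate block, each line alone, the methods' t-test, the deposited log2 values and each slide row alone. The fit was tested on simulated data.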

Additional observations from a re-analysis of the deposited data

Results flagged for a closer look

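The response of hsa-miR-151a-5p to trastuzumab differed between the lines by the interaction test, at -0.46 (log2, SKBR3 minus BT474, limma adjusted p = 0.0436). It is listed because the responses of both lines under the same treatment differed by a test of the difference itself. Its value was 0.15 after 75th percentile scaling and -0.12 with no scaling (limma adjusted p = 0.922). It did not pass with the replicate number as a block (limma adjusted p = 0.135), nor without any 1 of 5 arrays, namely both BT474 PBS arrays, BT474 trastuzumab replicate 1 and both SKBR3 trastuzumab arrays (limma adjusted p from 0.0508 to 0.0920). The SKBR3 response rested on a single PBS array.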

How the results depend on the processing

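hsa-miR-151a-5p stayed lower in SKBR3 in all 17 alternatives, between -3.67 and -1.95, and passed in 16, all but the fit on the 8 labelled arrays. hsa-miR-28-5p passed in 9 of 17 (-0.75 after 75th percentile scaling, -1.66 with no scaling) and turned sign in 3: 0.0061 with spot means, 0.012 with normexp correction and 0.013 for the PBS arrays alone. hsa-miR-151a-3p was lower in all 17, between -4.20 and -1.73, and passed in 8, although it did not pass in the main fit. Of the members, 2 were called between the lines, against 0 on all 8 labelled arrays, 1 with the replicate block and 1 to 3 with an array left out. For BT474 treatment, 0 members were called in all 19 alternatives. In the main fit 0 had an unadjusted limma p under 0.05. The lowest adjusted p of a member was 0.0515 in limma, for hsa-miR-151a-5p after 75th percentile scaling (-0.22). Signs turned there for hsa-miR-28-5p after 75th percentile scaling (-0.19), spot means (-0.016) and normexp correction (-0.029), with -0.027 to 0.15 over the arrays left out. They also turned for hsa-miR-151a-5p with no scaling (0.23) and in the deposited values with and without the copy (0.025), and for hsa-miR-151a-3p with no scaling (0.17).

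For SKBR3 treatment, the count of 1 member became 0 after 75th percentile scaling, no scaling, spot means, normexp correction, all 8 labelled arrays, the replicate block, the line alone, the methods' t-test and the deposited values with and without the copy. It was 2 with detected miRNAs only and 0 to 2 with an array left out. With no scaling, hsa-miR-28-5p was 0.16 and hsa-miR-151a-5p 0.11. For the interaction, the count of 1 became 0 after 75th percentile scaling, no scaling, spot means, normexp correction, all 8 labelled arrays and the replicate block, and 0 to 1 with an array left out. After 75th percentile scaling hsa-miR-28-5p was 0.17 and hsa-miR-151a-5p 0.15. The miR-151a arm ratio between the lines (-0.19) was -0.16 with spot means, -0.20 on all labelled arrays with both arms and -0.20 with the replicate block, none of which passed, -0.40 from quantile normalized values, which passed, and -0.39 to 0.021 with an array left out. Its SKBR3 treatment value (-0.36) did not pass in 7 of 8 alternatives, the nearest to 0 being -0.12 with spot means. Beyond these calls the replicate block changed no other for a member. The causes of these changes were not tested.

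Counts over all miRNAs went, on the 8 labelled arrays, from 209 to 6 between the lines, 74 to 6 in BT474, 36 to 6 in SKBR3 and 49 to 5 for the interaction. Spot means gave 378, 14 and 75 for the first 3, and normexp correction 388 between the lines and 60 in SKBR3. The counts of 378 and 388 exceed the 305 miRNAs of the main fit. The fits behind them thus tested more miRNAs, and their counts cannot be set against those of the main fit. BT474 gave 25 with no scaling, 49 with the block, 45 with the line alone, 5 with the methods' t-test and 0 in the deposited values. SKBR3 gave 20, 18 and 19 for the first 3 of these and 0 in the deposited values. The interaction gave 25 with no scaling, 22 with the block and 23 with detected miRNAs only. With an array left out, BT474 gave 44 to 80, SKBR3 16 to 42 and the interaction 29 to 74. Without the SKBR3 PBS array, SKBR3 treatment and the interaction have no value. The members' SKBR3 signals were weak, with errors up to 29.5%, which limits the precision of their values there. Whether weak signals lowered the SKBR3 counts was not tested.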
